A study of Homo sapiens with 8 samples.

Results

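Glycolysis and hypoxia response genes were followed in NB4 cells across an empty vector, full-length PML/RARα and 2 mutants of the fusion. The set is a fixed list of 37 genes, matched by symbol to the Ensembl identifiers of the count files. It holds 20 glycolytic enzymes and their regulators, 4 transporters of glucose or lactate, and 13 genes of the hypoxia-inducible factor (HIF) pathway. All 37 were found among 60483 gene identifiers. In the statistical test, 36 of them were among the 13982 genes with enough counts, and EGLN3, which had 0 counts in every library, was not tested.

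NB4 is an established human acute promyelocytic leukaemia line that carries PML/RARα, a fusion of the promyelocytic leukaemia protein with the retinoic acid receptor α. All 4 groups were infected with lentivirus to knock down the endogenous fusion, and RNA was taken at 72 h. The control group received an empty vector in its place, and the other groups received HA-tagged full-length PML/RARα, the F158E mutant or the ΔIDR mutant, both of which the submitters describe as unable to phase separate. Each group had 2 libraries. The labels do not say that replicates came from separate cultures, so p-values measure only the spread between these libraries. One cell line was used, and no library without the knock-down was analysed here. Fewer cells expressing a gene and less RNA per cell cannot be told apart in bulk RNA.

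Glycolysis splits glucose into pyruvate, which lactate dehydrogenase reduces to lactate and monocarboxylate transporters carry across the membrane. Its early, largely irreversible steps are catalysed by hexokinase and phosphofructokinase, and its last step by pyruvate kinase. HIF1A is the oxygen-sensitive subunit of the HIF1 transcription factor: prolyl hydroxylases such as EGLN1 mark it for destruction when oxygen is present, so its activity is set largely at the protein level. In low oxygen it binds short DNA elements with the core ACGTG or GCGTG near many glycolytic genes and near VEGFA, BNIP3 and NDRG1. Fast-growing leukaemia cells commonly run glycolysis with oxygen present.

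The libraries held 16779364 to 21965389 counts assigned to genes. Summed CPM (counts scaled to library size with edgeR's TMM factors) of 8 promyelocyte markers, all of which were tested, were high in every library, at 8627 to 8770 with empty vector, 6006 to 6037 with the full-length fusion, 8327 to 8425 with F158E and 11269 to 11278 with ΔIDR. Markers of other cells were low. The 5 lymphoid genes summed to 4.97 to 9.03 CPM with MS4A1 at 0, the 3 megakaryocyte genes to 4.15 to 14.5 with PF4 at 0 and highest with ΔIDR, the 5 epithelial and kidney genes to 6.47 to 14.9 with CDH1 and KRT19 at 0 and highest with the full-length fusion, and the 3 fibroblast genes to 0.0915 to 4.78. Mitochondrially encoded genes took 3.11% and 3.12% of counts with the full-length fusion, 3.35% to 3.40% with empty vector and F158E, and 3.81% and 3.83% with ΔIDR. The part of these differences in the results was not tested. RNA counted to the fusion's partner genes also differed: RARA stood at 24.0 and 22.0 CPM with empty vector, 78.2 and 75.6 with the full-length fusion, 32.4 and 32.1 with F158E and 1350 and 1363 with ΔIDR. PML stood at 50.9 and 52.7, 127 and 121, 65.7 and 66.0, and 444 and 439.7 CPM in the same order. Both genes stood nearer to empty vector than to the full-length fusion in the F158E libraries, and far above it with ΔIDR. Reads of the construct, the endogenous fusion and the normal genes are counted together, and the amount of construct RNA and the mutation cannot be told apart.

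Promoter sequences show where the HIF core stands near 4 members on which the results turn. The windows run from 250 bases before to 50 bases after the RefSeq start (GRCh38.p14, 1 start a gene), written 5′ to 3′ on the gene's strand. Capitals mark ACGTG or GCGTG on either strand (CACGT or CACGC when read on the strand shown), and overlapping matches run together. ENO1 (chr1:8878637-8878936, minus strand), HK2 (chr2:74833877-74834176, plus strand) and LDHA (chr11:18394313-18394612, plus strand) were highest with the full-length fusion, and SLC16A3 (chr17:82228185-82228484, plus strand) was lowest there.
ENO1: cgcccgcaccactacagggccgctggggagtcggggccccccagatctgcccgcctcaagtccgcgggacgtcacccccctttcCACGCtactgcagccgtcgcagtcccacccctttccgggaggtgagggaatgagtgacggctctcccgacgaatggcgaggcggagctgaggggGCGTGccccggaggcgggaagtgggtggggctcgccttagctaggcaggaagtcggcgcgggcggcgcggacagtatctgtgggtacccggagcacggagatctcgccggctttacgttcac
HK2: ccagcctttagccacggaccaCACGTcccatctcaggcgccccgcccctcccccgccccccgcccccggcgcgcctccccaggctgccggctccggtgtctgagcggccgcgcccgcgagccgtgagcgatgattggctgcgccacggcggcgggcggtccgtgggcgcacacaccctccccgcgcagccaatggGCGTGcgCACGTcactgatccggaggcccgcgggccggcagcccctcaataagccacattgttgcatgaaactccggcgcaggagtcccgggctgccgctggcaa
LDHA: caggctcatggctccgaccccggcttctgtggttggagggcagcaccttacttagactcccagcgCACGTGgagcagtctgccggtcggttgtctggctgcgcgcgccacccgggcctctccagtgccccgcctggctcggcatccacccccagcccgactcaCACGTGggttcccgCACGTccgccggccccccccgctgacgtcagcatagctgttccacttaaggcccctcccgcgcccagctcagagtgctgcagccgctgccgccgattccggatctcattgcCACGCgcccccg
SLC16A3: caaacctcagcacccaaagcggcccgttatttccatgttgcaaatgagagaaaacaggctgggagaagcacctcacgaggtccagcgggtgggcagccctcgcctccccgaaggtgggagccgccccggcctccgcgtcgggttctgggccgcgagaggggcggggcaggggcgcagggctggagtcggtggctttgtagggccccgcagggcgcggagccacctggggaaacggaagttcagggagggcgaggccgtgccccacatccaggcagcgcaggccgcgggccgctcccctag

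LDHA held the core at 6 places, HK2 at 3 and ENO1 at 2, whereas SLC16A3 held none in this window. These 4 do not stand for all the genes: PFKL and PFKFB4, also lowest with the full-length fusion, held a core at -164 and -166, and HK1, called higher there than with empty vector, held none. Positions counted from the start, with upstream bases negative, were -229, -55 and -48 in HK2, and -166 and -72 in ENO1. In LDHA they were -185, -184, -87, -86, -73 and 39, where the adjacent pairs are the 2 strands of 1 CACGTG. The reference table held promoters for 32 of the 37 genes; SLC2A3, SLC16A1, VEGFA, BNIP3L and NDRG1 were not among them. Either core was present in 23 of the 32 (71.9%), against 48.4% of all 27305 promoter windows of 300 bases. By role these were 14 of 20 enzyme genes, 8 of 10 HIF pathway genes and 1 of 2 transporters. At least 4 places were found in 4 of the 32 (12.5%), namely LDHA, BNIP3, ALDOC and PGK1, against 4.45% of all promoters. The hexamer AGGTCA, a half-site of retinoid receptor elements, was searched on both strands. It was present in HK1, ALDOC and TPI1 (9.38% of the 32, against 13.9% of all promoters). Pairs of half-sites were not searched for. A match describes letters and is not a binding site. Each window rests on 1 annotated start, and which starts these cells use was not examined.

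**Figure D1:**
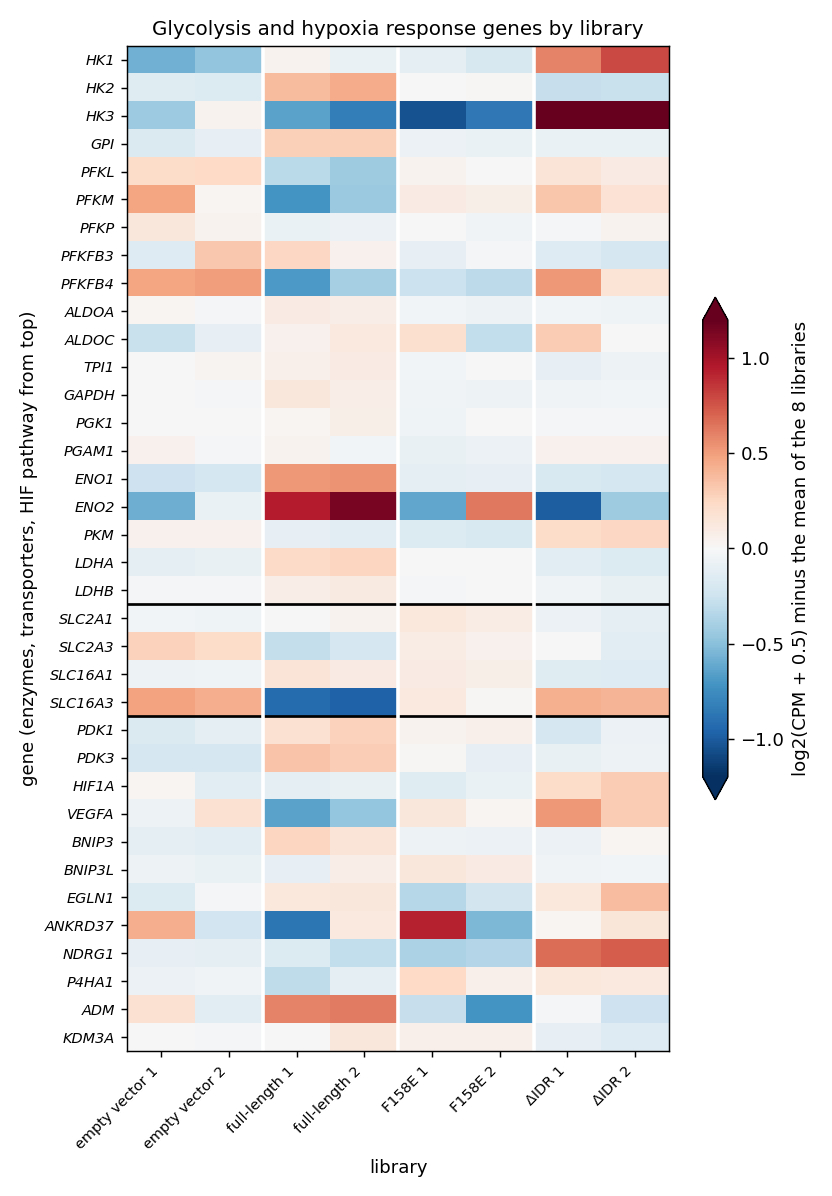
Heat map of the 36 tested genes (rows, grouped by role) in the 8 libraries (columns). Colour is log2(CPM + 0.5) minus the gene's mean over the 8 libraries. The 2 libraries of a group look alike for most genes, and the full-length columns stand apart for ENO1, HK2, GPI and SLC16A3.

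Most of the RNA from these genes came from the later steps of glycolysis. Per kilobase of exon, averaged over the 8 libraries, GAPDH had the highest level at 1232 CPM per kb, followed by LDHB at 794, ENO1 at 382, ALDOA at 359 and TPI1 at 309. Exon lengths merge the exons of all annotated transcripts of a gene, so ranks between genes depend on the annotation. PKM had 1567 CPM with empty vector over 8.57 kb of exon, and TPI1 845 over 2.7 kb. Over all libraries PKM came to 177 CPM per kb. HK2, which starts the pathway, reached 34.8 CPM per kb and HIF1A 24.8. The lowest levels among tested genes were those of ENO2 (0.278), ANKRD37 (0.354), HK3 (0.467) and PFKM (0.734 CPM per kb). Together the 20 enzyme genes took 1.79% and 1.78% of all counts with the full-length fusion and 1.53% to 1.54% in the 6 other libraries. The 4 transporters took 0.0762% and 0.0749% with the full-length fusion, below the 0.0939% to 0.106% of the others. The share of the HIF pathway genes was 0.0585% in both empty vector libraries, 0.0592% and 0.0615% with the full-length fusion, 0.0618% and 0.0601% with F158E and 0.0660% and 0.0675% with ΔIDR. Summed enzyme RNA was thus highest, and summed transporter RNA lowest, in the full-length libraries, while the HIF share was highest with ΔIDR. Single abundant genes weigh on these sums. Mean ENO1 was 1683 CPM with empty vector and 2838 with the full-length fusion, and mean SLC16A3 488 and 184. Not every gene followed its sum: SLC16A1 had its highest and PFKL its lowest mean with the full-length fusion.

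The full-length fusion against empty vector asks how these genes differed when the full-length construct was supplied. Of the enzyme genes more rose than fell, among them the glycolytic enolase ENO1, HK1, HK2, GPI and LDHA, while the lactate exporter SLC16A3, the glucose transporter SLC2A3, PFKL, PFKM, PFKFB4 and VEGFA fell. At an adjusted p under 0.05 (Benjamini-Hochberg over all 13982 genes), 14 of the 36 tested genes were higher and 9 lower, with 13 not called. That is 63.9% of them, against 48.6% of all genes tested (24.2% higher, 24.4% lower). The median absolute log2 fold change of the 36 was 0.3005, below the 0.362 of all genes, and 13 of the 23 called genes changed by less than 0.5 on the log2 scale. Small changes were called in genes with many counts: GAPDH was called at 0.12 (SE 0.016), and ADM was not at 0.64 (SE 0.29). Shares of called genes, here and in the later comparisons, were not set against genes of like counts. With a log2 fold change of at least 0.5 in size as well, 5 were higher and 5 lower, against 25.0% of all genes. By role, 10 of 20 enzyme genes were higher and 5 lower, 1 of 4 transporters was higher and 2 lower, and 3 of 12 HIF pathway genes were higher and 2 lower. The median log2 fold changes of the 3 roles were 0.07, -0.22 and 0.07.

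At the entry to glycolysis, hexokinase traps glucose as glucose 6-phosphate. HK2, the inducible hexokinase (chr2:74833981-74893359 on GRCh38), stood at 188 and 186 CPM with empty vector, 270.4 and 283 with the full-length fusion, 209 and 209 with F158E and 172 and 172 with ΔIDR. Both full-length libraries were above all others, and the log2 fold change over empty vector was 0.57 ± 0.04 (SE, adjusted p = 6.03e-22). HK1, the broadly expressed hexokinase, had 16.1 and 17.3 CPM with empty vector, 24.9 and 22.8 with the full-length fusion, 22.4 and 21.2 with F158E and 36.9 and 42.2 with ΔIDR. It rose by 0.52 ± 0.12 on the log2 scale with the full-length fusion (adjusted p = 2.28e-04), and the ΔIDR libraries were higher again. HK3, a hexokinase of mature myeloid cells, had 0.539 and 0.949 CPM with empty vector, 0.398 and 0.291 with the full-length fusion, 0.183 and 0.274 with F158E and 6.09 and 3.57 with ΔIDR. Outside ΔIDR these are 4 to 18 counts a library. GPI, which turns glucose 6-phosphate into fructose 6-phosphate, stood at 251 and 263 CPM with empty vector, 345 and 344 with the full-length fusion, 269.6 and 267 with F158E and 268 and 267 with ΔIDR. It rose by 0.42 ± 0.04 (adjusted p = 5.17e-18), with no overlap between these groups.

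Phosphofructokinase commits the sugar to glycolysis, and its 3 subunit genes all fell. PFKL, the liver-type subunit (chr21:44300051-44327376), had 179 and 182 CPM with empty vector, 122 and 114 with the full-length fusion, 157.5 and 153 with F158E and 171 and 164 with ΔIDR. Its log2 fold change between the first 2 groups was -0.61 ± 0.05 (adjusted p = 1.20e-19). PFKM, the muscle-type subunit, was scarce, with 7.38 and 5.27, 2.95 and 3.67, 5.61 and 5.48, and 6.69 and 5.90 CPM in the same order of groups. It fell by 0.93 on the log2 scale (SE 0.26, adjusted p = 0.00145), a call that was lost without the first empty vector library (adjusted p = 0.0795). SENP1 on the other strand shares 628 bases (8.58%) of PFKM's exons and has more counts. The kit does not mark strand, so reads there cannot be assigned with certainty. PFKP stood at 142 and 133 CPM with empty vector and at 122 and 123 with the full-length fusion. With empty vector it was below PFKL in CPM, though highest of the 3 per kilobase of merged exons. Its change was small (log2 fold change -0.16 ± 0.05, adjusted p = 0.00591).

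The bifunctional enzymes PFKFB3 and PFKFB4 set the level of fructose 2,6-bisphosphate, which activates phosphofructokinase. PFKFB4 (chr3:48517684-48562015) had 14.1 and 14.4 CPM with empty vector, 6.02 and 7.52 with the full-length fusion, 8.30 and 7.99 with F158E and 14.6 and 11.3 with ΔIDR. It was 2.11-fold lower with the full-length fusion than with empty vector (log2 fold change -1.08 ± 0.18, adjusted p = 3.54e-07). UCN2, on the same strand, shares 289 bases (4.73%) of its exons and was also lower with the full-length fusion (-1.81, adjusted p = 2.08e-04). PFKFB3 had 27.9 and 39.0 CPM with empty vector, 37.2 and 32.3 with the full-length fusion, 29.02 and 31.0 with F158E and 27.96 and 27.03 with ΔIDR. The empty vector libraries spanned both full-length ones, and no difference was called (0.05 ± 0.11, adjusted p = 0.720). As a share of the 2 genes' CPM per kb, PFKFB4 made up 33.6% and 27.04% with empty vector and 13.9% and 18.9% with the full-length fusion.

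Among the later steps ENO1 stood apart. ENO1, which makes phosphoenolpyruvate (chr1:8861000-8879250), had 1661 and 1705 CPM with empty vector, 2820.0 and 2857 with the full-length fusion, 1814 and 1838 with F158E and 1735 and 1702 with ΔIDR. Its full-length libraries were 1.69-fold above empty vector (log2 fold change 0.75 ± 0.02, adjusted p = 2.15e-53). ENO2, the neuronal enolase, reached 2.33 and 2.74 CPM with the full-length fusion, against 0.485 and 0.896 with empty vector, 0.456 and 1.78 with F158E and 0.241 and 0.595 with ΔIDR. These are 4 to 47 counts a library. ENO2 was called higher (1.86 ± 0.60, adjusted p = 0.00705), but not without the first empty vector library (adjusted p = 0.0986). Of the RNA per kilobase of these 2 genes, ENO1 made up 99.9% in both full-length libraries.

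Most other enzymes of these steps changed less. ALDOA, TPI1 and GAPDH, abundant enzymes of the middle of the pathway, were each called higher with the full-length fusion, with log2 fold changes of 0.08, 0.06 and 0.12. GAPDH, often used as a reference gene, stood at 3653 and 3602 CPM with empty vector and 4030.3 and 3872 with the full-length fusion. PGK1 and PGAM1 were not called (0.04 and -0.01), nor was the aldolase ALDOC (0.27 ± 0.19). PKM, which makes pyruvate, had 1567 and 1566 CPM with empty vector, 1409 and 1382 with the full-length fusion, 1351 and 1333 with F158E and 1765 and 1796 with ΔIDR. It was lower with the full-length fusion by a small, tight margin (-0.17 ± 0.02, adjusted p = 1.45e-11). LDHA, which reduces pyruvate to lactate (chr11:18394388-18408425), had 1584 and 1607 CPM with empty vector, 1996 and 2035 with the full-length fusion, 1706 and 1714 with F158E and 1554 and 1524 with ΔIDR. It rose by 0.34 ± 0.02 (adjusted p = 1.15e-27), and LDHB, the other subunit, by 0.12 ± 0.02 (adjusted p = 1.66e-08). LDHA thereby made up 27.7% of lactate dehydrogenase RNA per kilobase in both full-length libraries and 24.5% to 25.9% in the 6 others.

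**Figure D2:**
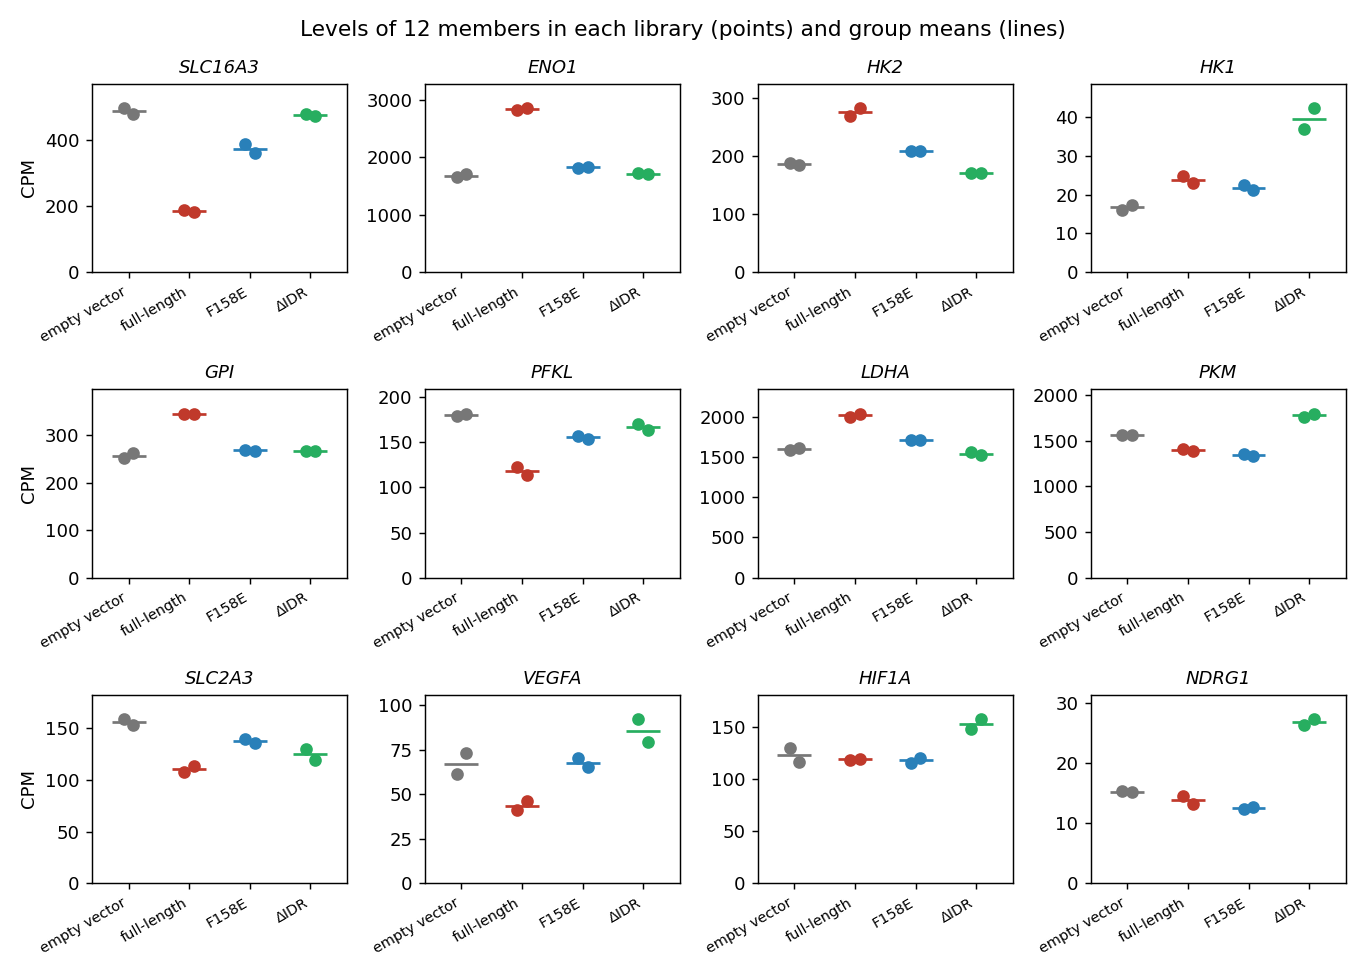
CPM of 12 genes in each of the 8 libraries, 1 point a library, with a panel and a linear axis for each gene. ENO1, HK2, GPI and LDHA are highest and SLC16A3, PFKL, SLC2A3 and VEGFA lowest in the full-length libraries, while HK1, HIF1A and NDRG1 are highest with ΔIDR.

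Among transporters SLC16A3, which exports lactate (MCT4, chr17:82228397-82261129), changed most. It had 496 and 480.0 CPM with empty vector, 187 and 181 with the full-length fusion, 387 and 359.9 with F158E and 478 and 473 with ΔIDR. Full-length libraries were 2.65-fold below empty vector (log2 fold change -1.40 ± 0.03, adjusted p = 2.95e-53). CSNK1D on the other strand overlaps 482 bases (5.36%) of the SLC16A3 exons, and it fell by less (log2 fold change -0.33, adjusted p = 2.86e-07). SLC16A1, the other lactate and pyruvate carrier of the list (MCT1), had 301 and 301 CPM with empty vector, 349 and 335 with the full-length fusion, 335 and 329 with F158E and 283 and 282 with ΔIDR. It rose by 0.18 ± 0.03 on the log2 scale (adjusted p = 3.50e-06). Of the 2 genes' RNA per kilobase, SLC16A3 made up 49.4% and 48.5% with empty vector, 24.1% and 24.2% with the full-length fusion, 40.6% and 39.2% with F158E and 49.98% and 49.7% with ΔIDR. The SLC16A3 share was thus lowest in the full-length libraries, and lower with F158E than with empty vector or ΔIDR. The share itself rests on merged exon lengths of 8.995 kb for SLC16A3 and 5.312 kb for SLC16A1. It is read here only between groups.

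The glucose transporters split. SLC2A3 (GLUT3), a high-affinity glucose importer, had 159 and 153 CPM with empty vector, 107 and 114 with the full-length fusion, 139 and 135 with F158E and 130.3 and 119.6 with ΔIDR. It fell by 0.49 ± 0.05 (log2 scale, adjusted p = 8.30e-14). Its near-identical copy SLC2A14 had 2 to 10 counts a library. Reads without a unique alignment were not counted to genes, so this does not show how many reads the 2 genes share. SLC2A1 (GLUT1), the widespread basal importer, had 105 and 104 CPM with empty vector, 108 and 111 with the full-length fusion, 117 and 115 with F158E and 103 and 99.9 with ΔIDR. No difference was called for it between the full-length fusion and any other group, except lower with ΔIDR when libraries were scaled by their totals only (-0.14, adjusted p = 0.0287).

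**Figure D3:**
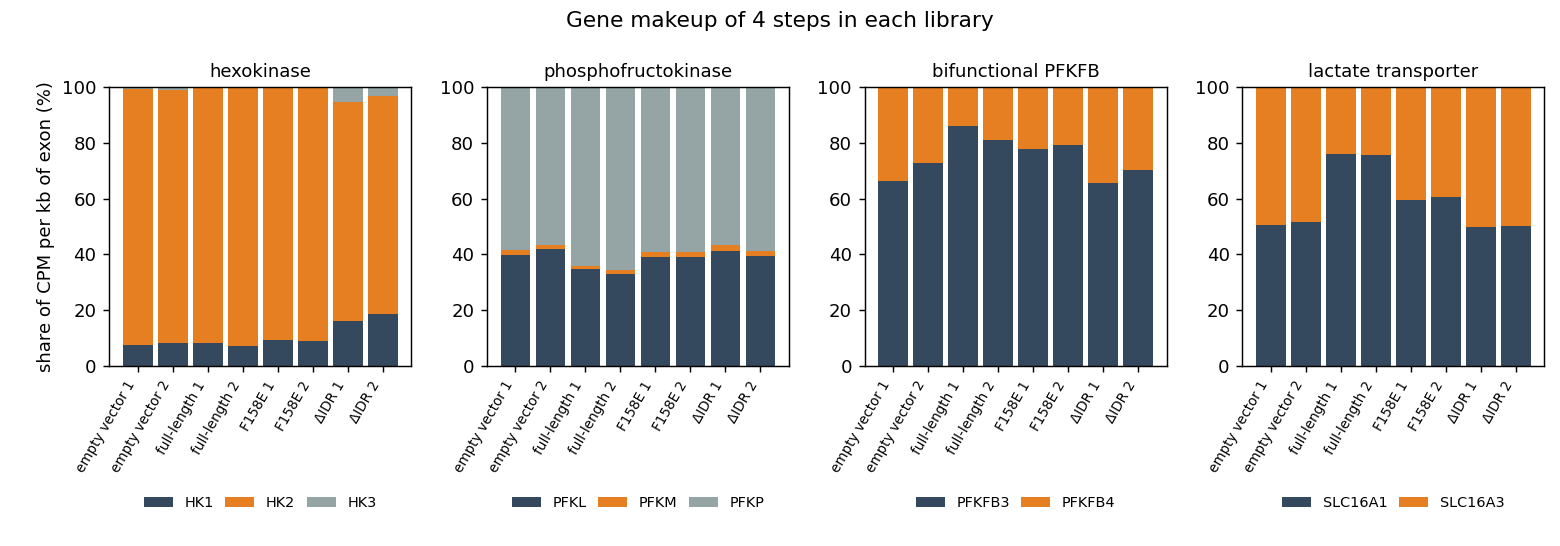
Stacked bars of the percent that each gene contributes to the summed CPM per kb of its step, in each of the 8 libraries, for hexokinase, phosphofructokinase, the PFKFB enzymes and the lactate transporters. SLC16A3 takes 24.1% and 24.2% in the full-length libraries and 39.2% to 49.98% elsewhere, and HK1 takes 16.3% and 18.5% with ΔIDR and 7.20% to 9.35% elsewhere.

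HIF pathway genes did not move as a block with the full-length fusion. HIF1A itself (chr14:61695513-61748259) had 129 and 116 CPM with empty vector, 118 and 119 with the full-length fusion, 115 and 120.4 with F158E and 148 and 157 with ΔIDR. The full-length libraries lay within the empty vector range (log2 fold change -0.05 ± 0.05, adjusted p = 0.470). VEGFA, the angiogenic growth factor (chr6:43770184-43786487), had 61.3 and 72.9 CPM with empty vector, 40.8 and 46.3 with the full-length fusion, 70.3 and 65.0 with F158E and 92.1 and 79.1 with ΔIDR. It fell by 0.62 ± 0.08 on the log2 scale (adjusted p = 1.96e-10). BNIP3, a mitophagy receptor, rose from 92.7 and 91.1 CPM to 119.8 and 111 (0.33 ± 0.06, adjusted p = 1.35e-06). Its 39 annotated pseudogenes had 1.73% as many counts as BNIP3 itself, where reads without a unique alignment were not counted to either. PDK1, a kinase that keeps pyruvate dehydrogenase off, rose from 36.0 and 37.5 CPM to 46.4 and 49.4 (0.38 ± 0.09, adjusted p = 3.00e-04). Its relative PDK3 had 5.87 and 5.85 CPM with empty vector, 8.75 and 8.51 with the full-length fusion, 6.89 and 6.35 with F158E and 6.39 and 6.49 with ΔIDR. Its call (0.56 ± 0.21, adjusted p = 0.0246) was lost when any one of these 4 empty vector or full-length libraries was left out (adjusted p = 0.0665 to 0.0993). P4HA1, a collagen prolyl hydroxylase, was called slightly lower (-0.15 ± 0.06, adjusted p = 0.0247).

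The HIF pathway genes not called in this comparison were 7. EGLN1, the main HIF prolyl hydroxylase, had a log2 fold change of 0.22 ± 0.10 (adjusted p = 0.0628). NDRG1, a stress-induced gene, had 15.2 and 15.1 CPM with empty vector, 14.5 and 13.2 with the full-length fusion, 12.4 and 12.6 with F158E and 26.3 and 27.3 with ΔIDR. ADM, the vasodilator peptide adrenomedullin, had 4.26 and 3.32, 5.85 and 5.94, 2.97 and 2.05, and 3.62 and 3.02 CPM in the same order. Its full-length libraries were the highest of the 8, with a log2 fold change of 0.64 ± 0.29 that missed the threshold (adjusted p = 0.0599). HIF1A, BNIP3L, KDM3A and ANKRD37 complete the list, with BNIP3L at 38.4 to 45.2 CPM, KDM3A at 55.2 to 67.6 and ANKRD37 at 0.227 to 2.01 over the 8 libraries. UFSP2 on the other strand shares 909 bases (35.2%) of ANKRD37's exons. EGLN3, a HIF prolyl hydroxylase that low oxygen induces in many cells, had 0 counts throughout, which allows up to 3 counts or 0.137 to 0.179 CPM a library and covers counting error only.

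F158E against the full-length fusion asks whether the mutant gave the same levels as the intact fusion. SLC16A3, VEGFA, PFKL, PFKM, SLC2A3 and P4HA1 were higher with F158E, and ENO1, HK2, GPI, LDHA, BNIP3, EGLN1 and ADM were among the genes that were lower. This and the ΔIDR comparison that follows use the same 2 full-length libraries as the comparison above, so opposite signs are partly fixed by those libraries, and RARA and PML RNA was lower with F158E than with the full-length fusion. Of the 36 tested genes, 6 were higher and 14 lower (55.6%, against 43.9% of all genes, 22.2% higher and 21.8% lower), and 3 and 2 with a log2 fold change of at least 0.5 in size (20.0% of all genes). By role these were 2 higher and 11 lower among 20 enzyme genes, 2 and 0 of 4 transporters, and 2 and 3 of 12 HIF pathway genes. The median absolute log2 fold change of the 36 was 0.225, below the 0.319 of all genes. SLC16A3 was 2.03-fold higher (log2 fold change 1.02 ± 0.03, adjusted p = 8.51e-43), and VEGFA rose by 0.64 ± 0.08 (adjusted p = 9.16e-11). ENO1 fell by 0.64 (SE 0.02, adjusted p = 6.96e-48). HK2 was lower by a log2 fold change of -0.41 ± 0.04 (adjusted p = 6.51e-15) and GPI by -0.36 ± 0.04 (adjusted p = 8.04e-15). ADM had the largest called decrease (-1.23 ± 0.30, adjusted p = 3.26e-04) at 45 to 103 counts a library. EGLN1, at 37.8 and 38.0 CPM with the full-length fusion and 27.2 and 29.6 with F158E, fell by 0.42 (SE 0.10, adjusted p = 3.93e-04). PFKM's rise (0.74 ± 0.26, adjusted p = 0.0131) was not called without the first full-length library (adjusted p = 0.131). HK1 and PFKFB4 were not called (-0.13 ± 0.12 and 0.27 ± 0.19).

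ΔIDR against the full-length fusion gave the largest share of called genes among the 6 comparisons, with 12 higher and 16 lower (77.8%, against 49.9% of all genes, 24.9% in each direction). HK1, HK3, PKM, NDRG1 and HIF1A were higher here, beside SLC16A3, VEGFA, PFKL, PFKM, PFKFB4, SLC2A3 and P4HA1. ENO1, ENO2, HK2, GPI, LDHA, LDHB, SLC16A1, PDK1, BNIP3 and ADM were among the lower genes. With a log2 fold change of at least 0.5 in size, 7 were higher and 4 lower, against 26.5% of all genes. Enzyme genes were 6 higher and 11 lower of 20, transporters 2 and 1 of 4, and HIF pathway genes 4 and 4 of 12. The median absolute log2 fold change was 0.359 for the 36 tested genes and 0.371 for all genes. SLC16A3 was 2.58-fold higher (log2 fold change 1.37 ± 0.03, adjusted p = 1.60e-52). VEGFA rose by 0.97 ± 0.08 (adjusted p = 6.23e-19) and NDRG1 by 0.95 ± 0.14 (adjusted p = 5.03e-09). PFKFB4 rose by 0.93 ± 0.18 (adjusted p = 9.03e-06) and HK1 by 0.73 ± 0.11 (adjusted p = 4.97e-08). HK3 had the largest change, 3.77 ± 0.58 (adjusted p = 3.04e-08), on 4 to 18 counts a library outside ΔIDR. ENO1 fell by 0.72 (SE 0.02, adjusted p = 2.77e-52) and HK2 by 0.69 (SE 0.04, adjusted p = 7.55e-27). PKM rose by 0.35 ± 0.02 (adjusted p = 5.80e-28), and HIF1A by 0.37 ± 0.05 (adjusted p = 5.02e-09). ADM and PFKFB3 were called lower (-0.84 ± 0.29 and -0.34 ± 0.11), but neither call held without the second ΔIDR library (adjusted p = 0.104 and 0.0563).

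**Figure D4:**
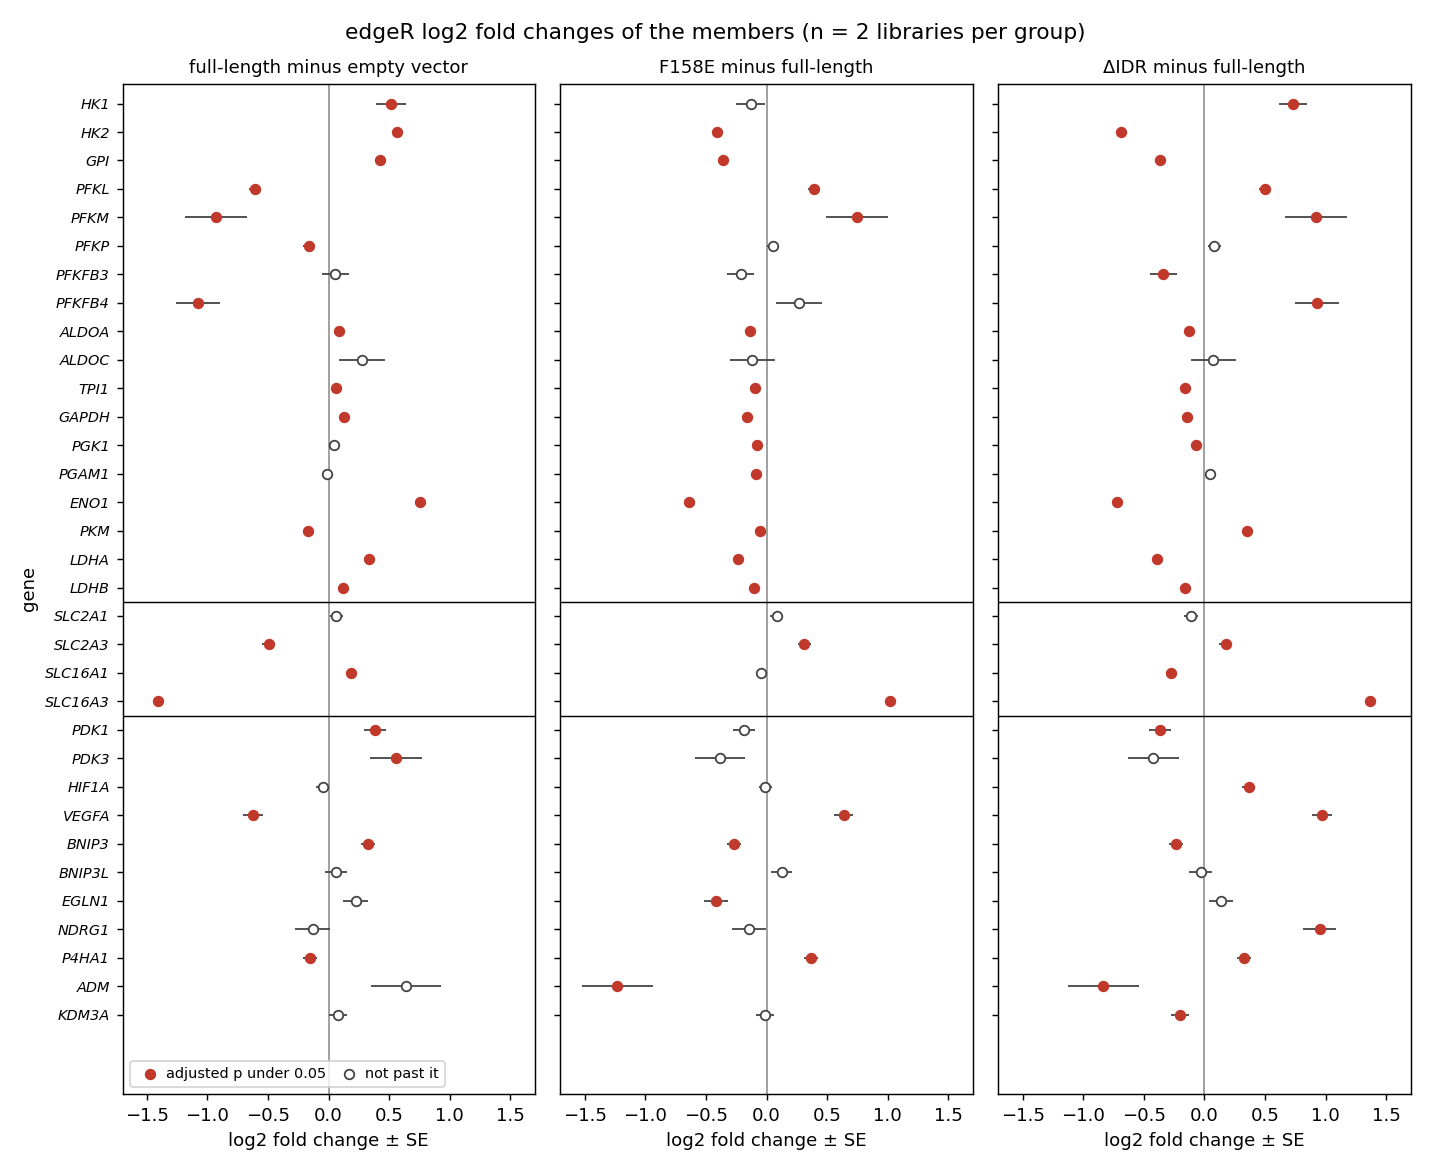
Log2 fold change ± SE of 33 tested genes in 3 panels: the full-length fusion minus empty vector, F158E minus full-length and ΔIDR minus full-length. Filled points had an adjusted p under 0.05. All 3 panels share the full-length libraries, and the low-count genes HK3, ENO2 and ANKRD37 are left out.

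Both mutants were also set against empty vector, which leaves the full-length group mean out of the contrast. The full-length libraries still entered the filter, the scaling and the shared estimate of spread. With F158E 6 genes were higher and 6 lower (33.3%, against 8.65% of all genes, 3.98% higher and 4.67% lower). Only PFKFB4 was called with a log2 fold change of at least 0.5 in size, against 1.92% of all genes. The median absolute log2 fold change was 0.160 for the 36 and 0.140 for all genes. PFKFB4 was lower with F158E (-0.81 ± 0.17, adjusted p = 4.74e-04), as were SLC16A3 (-0.39 ± 0.03, adjusted p = 8.36e-17) and PKM (-0.22 ± 0.02, adjusted p = 1.62e-15). HK1, P4HA1 and HK2 had the largest increases, at 0.39, 0.22 and 0.16. The HK1 call was lost with DESeq2 (adjusted p = 0.0528) and without any one of the empty vector or F158E libraries (adjusted p = 0.0651 to 0.234). P4HA1 was not called without the first empty vector or the first F158E library (adjusted p = 0.0923 and 0.333), nor HK2 without the second empty vector library (adjusted p = 0.0673). With ΔIDR the 36 genes had a median absolute log2 fold change of 0.103, below the 0.140 of all genes. Of these genes 8 were higher and 3 lower with ΔIDR (30.6%, against 10.3% of all genes, 5.06% higher and 5.23% lower). Calls with a log2 fold change of at least 0.5 in size were 3, against 3.58% of all genes. Without the first empty vector library 5 were higher, and without the second 1 was lower. HK3 (2.68 ± 0.52, adjusted p = 4.64e-05), HK1 (1.25 ± 0.12, adjusted p = 7.06e-15) and NDRG1 (0.82 ± 0.13, adjusted p = 1.51e-06) led the increases. Smaller increases were those of EGLN1 (0.36), VEGFA (0.35), HIF1A (0.32), PKM (0.18) and P4HA1 (0.18). SLC2A3 (-0.32 ± 0.05, adjusted p = 7.47e-07), HK2 (-0.12) and TPI1 (-0.10) were lower. The HK2 call did not survive the removal of any single library (adjusted p = 0.0745 to 0.305), and it was also lost with DESeq2 (0.0765), with no low-count filter (0.0753) and with only the 2 groups fitted (0.0634). TPI1 was not called without the second empty vector or the first ΔIDR library (adjusted p = 0.163 and 0.132). SLC16A3, ENO1, GPI and PFKL were not called between ΔIDR and empty vector (-0.04 ± 0.03, 0.03 ± 0.02, 0.05 ± 0.04 and -0.11 ± 0.05), which does not show that they were equal.

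The 2 mutants differed from each other in 17 of the 36 genes, with 10 higher and 7 lower under ΔIDR (47.2%, against 18.5% of all genes, 9.17% higher and 9.37% lower). Without the second ΔIDR library 4 were lower. HK3 (4.36 ± 0.59, adjusted p = 5.04e-09), NDRG1 (1.10 ± 0.13, adjusted p = 1.91e-10) and HK1 (0.86 ± 0.11, adjusted p = 1.43e-09) were the furthest above F158E among called genes. HK2 (-0.28 ± 0.04, adjusted p = 3.14e-08), SLC16A1 (-0.23 ± 0.03, adjusted p = 3.90e-08) and SLC2A1 (-0.20 ± 0.05, adjusted p = 0.00487) were the furthest below it among called genes. Without the first F158E or the second ΔIDR library SLC2A1 was not called (adjusted p = 0.0812 and 0.108). SLC16A3 (0.35), HIF1A (0.38), PKM (0.41), EGLN1 (0.55), PFKFB4 (0.66) and VEGFA (0.33) were also higher with ΔIDR. Of the 4 transporters 1 was called higher and 3 lower with ΔIDR than with F158E. Among the 12 HIF pathway genes 4 were called higher and 0 lower, with a median log2 fold change of 0.001. Over the 36 genes the median absolute log2 fold change was 0.181, against 0.170 for all genes. For HK2, ENO1 and LDHA the F158E libraries lay between the full-length libraries and the ΔIDR libraries. RARA and PML RNA was also higher with ΔIDR than with F158E.

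In all, 10 genes varied less than 1.2-fold between the highest and lowest group mean. They were PGK1, PGAM1, ALDOA, GAPDH, TPI1, LDHB and PFKP among enzymes, the transporter SLC2A1, and BNIP3L and KDM3A. In 17 of the 36 genes the full-length group had the highest mean and in 9 the lowest, against 38.2% and 38.3% of all genes tested. Genes with a HIF core in the promoter window (23 tested) were higher in 10 and lower in 4 cases with the full-length fusion than with empty vector, and the 8 tested genes without it were higher in 3 and lower in 3, against 24.2% higher and 24.4% lower over all genes. Their median log2 fold changes were 0.12 and -0.09. With F158E against the full-length fusion 2 were higher and 12 lower of 23, and 2 and 2 of 8 (22.2% and 21.8% of all genes). With ΔIDR against the full-length fusion 5 were higher and 13 lower of 23, and 4 and 2 of 8 (24.9% of all genes in each direction). The difference between genes with and without the core was not tested.

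Further genes of the pathways were taken from a second list, of which 31 of 40 glycolysis-linked genes could be tested. With the full-length fusion 9 were higher and 8 lower than with empty vector, or 54.8%, near the 48.6% of all genes, with a median log2 fold change of -0.01. SLC2A6, a further sugar transporter of the GLUT family, had 54.4 and 50.9 CPM with empty vector, 7.10 and 6.64 with the full-length fusion, 35.9 and 33.8 with F158E and 32.1 and 36.4 with ΔIDR. It fell by 2.94 on the log2 scale (SE 0.12, adjusted p = 1.48e-36), and both mutant groups were between the other two. ENO3, the muscle enolase, was also lower with the full-length fusion, at 1.82 and 3.09 CPM against 9.43 and 9.12 (-1.92 ± 0.24, adjusted p = 8.46e-11). PDP1, the phosphatase that switches pyruvate dehydrogenase on, rose from 8.51 and 9.54 to 22.2 and 21.4 CPM and stood at 6.27 to 8.40 in the 4 mutant libraries. PDHA1, a subunit of that enzyme, was higher with the full-length fusion by 0.48 ± 0.05 (adjusted p = 1.95e-14). SLC2A5, a fructose transporter, stood at 45.9 and 43.6 CPM with ΔIDR and at 18.2 to 24.5 in the 6 other libraries. With F158E 6 of the 31 were higher and 11 lower than with the full-length fusion (54.8%, against 43.9% of all genes), and with ΔIDR 10 were higher and 8 lower (58.1%, against 49.9%).

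Of 41 further HIF pathway genes 35 could be tested, and 12 were higher and 15 lower with the full-length fusion than with empty vector (77.1%, against 48.6% of all genes, 24.2% higher and 24.4% lower). ZNF395, a hypoxia-induced transcription factor, rose from 6.25 and 5.91 to 20.5 and 19.8 CPM (1.72 ± 0.18, adjusted p = 1.95e-13), and stood at 4.99 to 6.71 in the mutant libraries. FAM162A, a mitochondrial protein, rose from 28.5 and 33.7 to 58.3 and 58.7 CPM (0.91 ± 0.10, adjusted p = 7.26e-14). In the other direction, BHLHE40, a transcriptional repressor, fell from 27.9 and 24.9 to 9.09 and 6.41 CPM and stood at 47.1 and 43.9 with ΔIDR. CXCR4, the chemokine receptor, had 80.4 and 81.4 CPM with empty vector, 26.6 and 26.3 with the full-length fusion, 64.6 and 64.6 with F158E and 90.8 and 95.9 with ΔIDR. DDIT4, an inhibitor of mTOR signalling, fell from 78.2 and 78.6 to 26.9 and 29.1 CPM (-1.49 ± 0.08, adjusted p = 2.31e-29). With F158E 12 of the 35 were higher and 8 lower than with the full-length fusion (57.1%, against 43.9% of all genes), and with ΔIDR 14 were higher and 8 lower (62.9%, against 49.9%).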

How the data were processed

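The authors deposited raw read counts per gene for each of 8 ribosomal RNA-depleted libraries, with no normalization. The submitters' processing notes name hg38 and GRCh38. Which aligner, counter and annotation release they used is not given in the sources used here. In each file 60483 identifiers were followed by 5 lines of unassigned reads, which were left out of library totals, and 87.9% to 88.7% of reads were assigned. The library kit named in the labels does not mark strand.

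Counts were fitted with edgeR 4.0.16 in R 4.3.3 (quasi-likelihood, TMM factors 0.989 to 1.01, the filterByExpr filter, 1 mean per group, all 8 libraries), which left 13982 genes. Each of 6 comparisons was adjusted by the Benjamini-Hochberg method over all tested genes and called at an adjusted p under 0.05. Groups of 2 libraries share 1 estimate of spread per gene, which also borrows from other genes. An SE is therefore not the spread of that gene's own replicates alone. The square root of the common dispersion over all genes was 0.0486. SE is the log2 fold change divided by the square root of F. The fit was also run on simulated counts with the same spread for every gene and known changes in the full-length group only. Far fewer genes changed there than were called here, so it does not test the scaling of these data. Replicates of a group differed by more than counting noise (chi-square per degree of freedom 2.93 to 3.56).

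Symbols came from a table of gene names that held 56321 of the identifiers, and exon lengths and gene positions from GENCODE release 29. An exon length is that of the merged exons of all transcripts of a gene. Promoters came from RefSeq (GRCh38.p14). The genes and lists were chosen with earlier results of these data known. Full values were given for called genes with a log2 fold change of at least 0.5 in size in comparisons with full-length PML/RARα (at most 6 a direction in each role), for 7 fixed genes (HIF1A, SLC2A1, HK2, LDHA, PKM, PFKFB3 and VEGFA), and for the 3 largest called changes a direction in other comparisons. Further lists were given with up to 3 examples a direction. Alternatives covered scaling, DESeq2 1.42.0, the low-count filter, the libraries fitted, a replicate block and leaving out each library. Of the marker lists for other cell types, 1 is not reported here.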

Additional observations from a re-analysis of the deposited data

How the results depend on the processing

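The 60 named fold changes were recomputed under 15 alternatives, giving 898 values. Of these, 852 kept their direction and side of the threshold, 39 lost a call, 2 gained one and 5 changed sign. The 2 gained calls were SLC2A1 lower with ΔIDR than with full-length by library totals only (adjusted p = 0.0287) and PFKFB3 lower with F158E than with full-length without the second full-length library (adjusted p = 0.0457). Among the 53 called values 40 kept the call under every alternative that gave a value, 13 lost it under at least 1, and 0 changed sign. The 5 sign changes were in values not called in either case. PFKFB3 with the full-length fusion against empty vector came to -0.17 to 0.31 when single libraries were left out, with -0.17 without the first empty vector library and -0.05 without the first full-length one. HIF1A came to -0.13 to 0.027, highest without the first empty vector library. HIF1A with F158E against the full-length fusion came to 0.0021 with no low-count filter and to -0.041 to 0.024 when single libraries were left out, highest without the first F158E library. The PKM call in that comparison was lost under 4 settings, among them no filter (adjusted p = 0.156). PDK3 was also not called with no filter (adjusted p = 0.0593), nor ADM with ΔIDR without the second full-length library (adjusted p = 0.0520), nor PFKFB3 with ΔIDR without the first full-length library (adjusted p = 0.179).

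Requiring a log2 fold change of at least 0.5 in size gave these counts, each with the share of all genes in brackets. There were 5 higher and 5 lower genes for the full-length fusion against empty vector (25.0%). F158E against full-length gave 3 and 2 (20.0%), and ΔIDR against full-length 7 and 4 (26.5%). Against empty vector F158E gave 0 and 1 (1.92%) and ΔIDR 3 and 0 (3.58%), and ΔIDR against F158E gave 5 and 0 (6.27%). Scaling by library totals alone gave 5 lower genes for ΔIDR against empty vector in place of 3. It moved the median of all genes by at most 0.0283 (log2). Leaving out each library in turn gave 11 to 15 higher and 6 to 9 lower for the full-length fusion against empty vector, 5 to 7 and 12 to 14 for F158E against full-length, 11 to 12 and 12 to 16 for ΔIDR against full-length, 4 to 6 and 4 to 6 for F158E against empty vector, 5 to 8 and 1 to 3 for ΔIDR against empty vector, and 8 to 10 and 4 to 7 for ΔIDR against F158E. The lowest of these for ΔIDR against empty vector were 5 higher without the first and 1 lower without the second empty vector library. Without the second ΔIDR library 4 genes were lower for ΔIDR against F158E. Over all genes, F158E against empty vector had 1210 calls in the full fit and 638 to 778 without one of its own libraries, and ΔIDR against empty vector had 1439, with 944 without the first and 884 without the second empty vector library. In each other comparison, too, calls over all genes fell when one of its own libraries was left out. A group left with 1 library is assumed to vary like the others. The cause of these changes was not tested, beyond the smaller number of libraries.

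Replicate numbers did not pair the libraries (correlations of deviations -0.0211 to 0.0213). A replicate block gave 15 lower genes for F158E against full-length in place of 14 and left the other 11 counts as they were. Low counts limit ENO2, HK3 and ANKRD37, and changes in EGLN3 were not detectable at this depth.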
